A study of Mus musculus with 6 samples.

Results

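Chemokines are small secreted or membrane-held proteins that guide migrating cells, and their receptors are mostly G protein-coupled receptors on leukocytes. The genes described here are the 58 rows of a mouse RNA-seq count table, of 21526 gene rows in all, whose symbols begin with Cxcl, Ccl, Cx3cl, Cxcr, Ccr, Cx3cr or Ackr and a number. Of these, 36 are ligands and 22 are receptors. Fixed by name alone, the choice used no measured value. Epithelial cells were taken from the corpus of the stomach, with 3 libraries from wild-type mice labelled as normal stomach (Normal) and 3 from gastric cancer with activated Yap (Yap-activated). The Yap-activated genotype is given as CluCreERT2;R26rtTA;HA-Yap+, that is, a tamoxifen-dependent Cre recombinase at Clu, the doxycycline-dependent activator rtTA at Rosa26 and an HA-tagged Yap transgene. The labels' protocol gives the same schedule for both groups, with 2 mg of tamoxifen on 5 days in a row and doxycycline food over the final 14 days. Wild-type controls carry none of the 3 alleles, so the effect of Cre or rtTA cannot be told apart from that of Yap, and the sources used here do not give the age of the mice.

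Yap is a transcriptional coactivator held back by the Hippo pathway. Chemokines with CXC spacing of their first cysteines and a glutamate-leucine-arginine motif before them (ELR chemokines) attract neutrophils through Cxcr2, while those without the motif, such as Cxcl9 and Cxcl10, mostly attract lymphocytes. CC chemokines act on monocytes, eosinophils, dendritic cells and lymphocytes, and atypical receptors (Ackr genes) take up chemokines without signalling through G proteins. In the mucosa, epithelial cells make several of the ligands, and most of the receptors are carried by leukocytes.

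Library totals ran from 25580734 to 48440033 counts. Levels are TMM-scaled CPM (read counts relative to library size), and log2 fold changes are Yap-activated over Normal from edgeR's quasi-likelihood test, with Benjamini-Hochberg adjustment of p across the 14600 genes that could be tested. The labels do not say that each library came from a separate mouse, so these p-values measure the spread between the libraries, which may be technical in part. Of 17 epithelial markers 7 rose, 7 fell and 3 did not pass. General epithelial genes were present in both groups, with Epcam at 212 to 256 CPM in Normal and 919 to 1089 CPM in Yap-activated libraries. Defining genes of the corpus were far lower in Yap-activated libraries: the parietal cell pump gene Atp4a went from a mean of 18324 to 22.8 CPM, the pepsinogen gene Pgc from 111582 to 168 CPM, and the surface cell genes Gkn1 and Muc5ac from 19263 to 559 CPM and from 6751 to 63.6 CPM. The part of this loss in the results below was not tested. Since RNA was measured over all cells together, fewer cells of a type and less RNA per cell cannot be told apart in any result below.

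Of the 58 genes, 47 passed the filter on low counts. Among these, 27 rose and 4 fell in Yap-activated tissue and 16 did not pass the threshold of 0.05. Of all genes tested, 29.8% rose and 29.7% fell, 59.5% together, so a call by itself is common in this comparison. The median log2 fold change was 1.17 over the chemokine and receptor genes tested and 0.01 over all genes tested. In 53.2% of the 47 genes the rise was called and over 2-fold, against 16.9% of all genes tested. A call with a rise over 16-fold was seen in 14.9% of the 47 and 2.21% of all. The filter keeps a gene that is high in either group: 16 of the 47 did not reach its cutoff of 0.251 unscaled CPM in all 3 Normal libraries, and 11 of those 16 rose. Of the 31 that did reach it in all Normal libraries, 16 rose, 4 fell and 11 did not pass. Cxcl1, Cxcl3, Ccl17, Ccl20 and Cxcr2, all with a rise over 16-fold, passed the filter only with their Yap-activated libraries. The shares over 2-fold and over 16-fold were not split in this way. In 29 of the 47 genes the groups did not overlap in CPM, as in 67.6% of all genes tested.

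**Figure D1:**
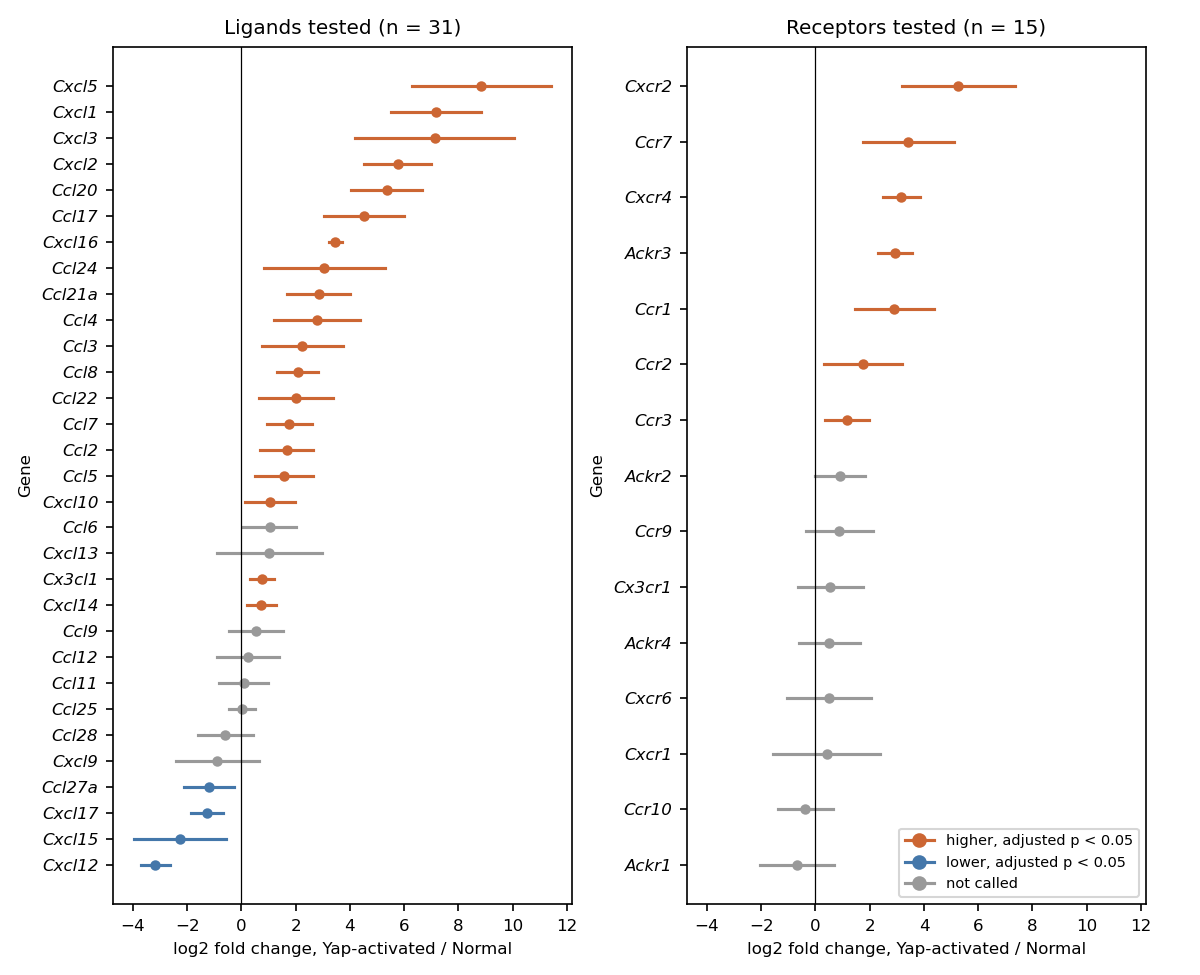
Log2 fold change (Yap-activated over Normal, x axis) with its 95% interval from the edgeR fit for the 31 ligand genes tested and 15 of the 16 receptor genes tested (y axis). Cxcl5, Cxcl1 and Cxcl3 stand highest among ligands and Cxcr2 among receptors, and the 4 genes that fell, in blue, are all ligands.

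The ELR ligands gave the largest rises. Their genes lie in 1 cluster on chromosome 5, on the plus strand from 90759360 to 90905938 (GRCm38), in the order Cxcl5, Cxcl3, Cxcl15, Cxcl1 and Cxcl2. Genes with other names that may lie between them were not looked up. Of these 5 genes 4 rose, and Cxcl15, known as a chemokine of lung epithelium, fell.

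Printed here are the 120 bases before the RefSeq start of Cxcl1, Cxcl2, Cxcl3 and Cxcl15 (GRCm38.p6, plus strand, 5′ to 3′). Those of Ccl20, a CC ligand that also rose, are added. Cxcl5, the neighbour with the largest rise, had no promoter window. Capitals mark matches to the NF-kappaB consensus, searched on both strands.
Cxcl3, chr5:90785981-90786100: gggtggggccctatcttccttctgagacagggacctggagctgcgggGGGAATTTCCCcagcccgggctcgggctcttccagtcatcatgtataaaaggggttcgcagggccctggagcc
Cxcl15, chr5:90794414-90794533: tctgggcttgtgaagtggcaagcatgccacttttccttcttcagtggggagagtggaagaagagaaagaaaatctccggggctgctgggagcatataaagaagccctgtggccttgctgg
Cxcl1, chr5:90891125-90891244: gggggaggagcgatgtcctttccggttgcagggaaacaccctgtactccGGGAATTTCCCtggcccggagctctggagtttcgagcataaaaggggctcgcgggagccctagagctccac
Cxcl2, chr5:90903779-90903898: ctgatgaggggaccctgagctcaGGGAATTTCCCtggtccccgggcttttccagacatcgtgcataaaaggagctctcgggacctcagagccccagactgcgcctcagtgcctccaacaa
Ccl20, chr1:83116646-83116765: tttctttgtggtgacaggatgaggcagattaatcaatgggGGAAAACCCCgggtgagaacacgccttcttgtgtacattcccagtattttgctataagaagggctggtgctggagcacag

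The promoters of Cxcl1, Cxcl2 and Cxcl3 hold the same run, GGGAATTTCCC, which contains 2 overlapping matches, one on each strand. It begins 71 bases before the start in Cxcl1, 97 bases before it in Cxcl2 and 73 bases before it in Cxcl3. The match in Ccl20 begins 80 bases before the start, and the printed stretch of Cxcl15 holds none. RefSeq promoter windows (250 bases before to 50 after a start) were matched by symbol for 44 of the 58 genes, in 51 windows. Of these windows 10, or 19.6%, hold an NF-kappaB match, against 4.51% of all 32851 windows. The AP-1 motif TGANTCA is in 10 of the 51 windows and in 7.81% of all windows, and the TEAD motif GGAATG, bound by the partners of Yap, is in 6 of the 51 and in 14.7% of all windows. In the 18 windows of genes that rose, NF-kappaB matches are in 6 (33.3%), AP-1 in 2 (11.1%) and TEAD in 4 (22.2%), against 5.43%, 5.72% and 12.5% of the windows of all genes tested. The other NF-kappaB matches are in windows of Ccl27a, which fell, Ackr2 and Ccl9, which did not pass, and Ccr6, which was not tested. No match of one motif overlapped a match of another in the 51 windows. A match describes the sequence only.

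Cxcl5 stood at 1.60, 1.59 and 1.45 CPM in Normal replicates 1 to 3 and at 1622, 174 and 349 CPM in Yap-activated replicates 1 to 3. Every Yap-activated library was over all Normal libraries, and replicate 1 was far above the others. The log2 fold change was 8.84 (SE 1.08, adjusted p = 5.13e-04), and without Yap-activated replicate 1 it was 7.40. Cxcl2, a neutrophil attractant made soon after inflammatory stimuli, went from 1.46, 1.28 and 0.664 CPM to 104, 37.6 and 45.0 CPM. The groups did not overlap, and the gene rose by 5.75 on the log2 scale (SE 0.53, adjusted p = 1.22e-04). Cxcl1, the mouse KC gene, went from 0.612, 0.309 and 0.190 CPM to 78.2, 63.2 and 19.9 CPM. Here Yap-activated replicate 3, not replicate 2, was the lowest of its group, and the log2 fold change was 7.17 (SE 0.70, adjusted p = 1.77e-04). Cxcl3, a further Cxcr2 ligand, had 0.349, 0.285 and 0.221 CPM in Normal and 99.1, 11.9 and 10.4 CPM in Yap-activated libraries. Replicate 1 again stood high, and the log2 fold change of 7.12 (SE 1.23, adjusted p = 0.00254) became 5.28 without it. Cxcl15 fell from 0.582, 0.428 and 0.664 CPM to 0.305, 0.0239 and 0.0558 CPM (log2 fold change -2.27, SE 0.74, adjusted p = 0.0286). That is a fall among low counts, its call was lost without any single library other than Yap-activated replicate 1, and without that replicate its log2 fold change was -3.64.

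Cxcr2, the receptor of these ligands on neutrophils, rose with them. It had 0.262, 0.214 and 0.379 CPM in Normal libraries and 13.7, 1.93 and 17.2 CPM in Yap-activated libraries, and the groups did not overlap. The rise was 5.27 on the log2 scale (SE 0.88, adjusted p = 0.00204). Yap-activated replicate 2 was the lowest for Cxcr2, while for Cxcl1 it stood at 63.2 CPM, close to replicate 1. Cxcr1, which lies beside Cxcr2 on chromosome 1, had 0.699, 0.166 and 0.158 CPM in Normal and 0.881, 0.0954 and 0.428 CPM in Yap-activated libraries, with overlapping groups (log2 fold change 0.42, 95% interval -1.56 to 2.40).

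Genes of neutrophils rose as well. Of 12 neutrophil marker genes 7 were tested and 6 of these rose. The summed level of the 12 went from 6.42 to 9.76 CPM in Normal to 651.6, 44.8 and 230.7 CPM in Yap-activated replicates 1 to 3. Like Cxcr2, this sum was lowest in replicate 2, but it was highest in replicate 1 and Cxcr2 in replicate 3. Mmp9 was more even, at 41.5, 22.3 and 29.0 CPM. The calprotectin gene S100a9 had 7.20 CPM in Yap-activated replicate 2 against 274 and 81.6 CPM in replicates 1 and 3, and Csf3r, the G-CSF receptor gene, had 7.92 against 29.4 and 44.8 CPM. Granule genes differed: Mpo was at no more than 0.0678 CPM and Elane at no more than 0.0186 CPM in any library, while Mmp8 rose, with 17.0, 0.262 and 2.90 CPM in Yap-activated libraries against at most 0.175 CPM in Normal. Ngp was not tested and had 4.61, 0.0477 and 0.577 CPM in Yap-activated libraries against at most 0.119 CPM in Normal. The part of neutrophils in the rise of Cxcr2 was not tested.

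**Figure D2:**
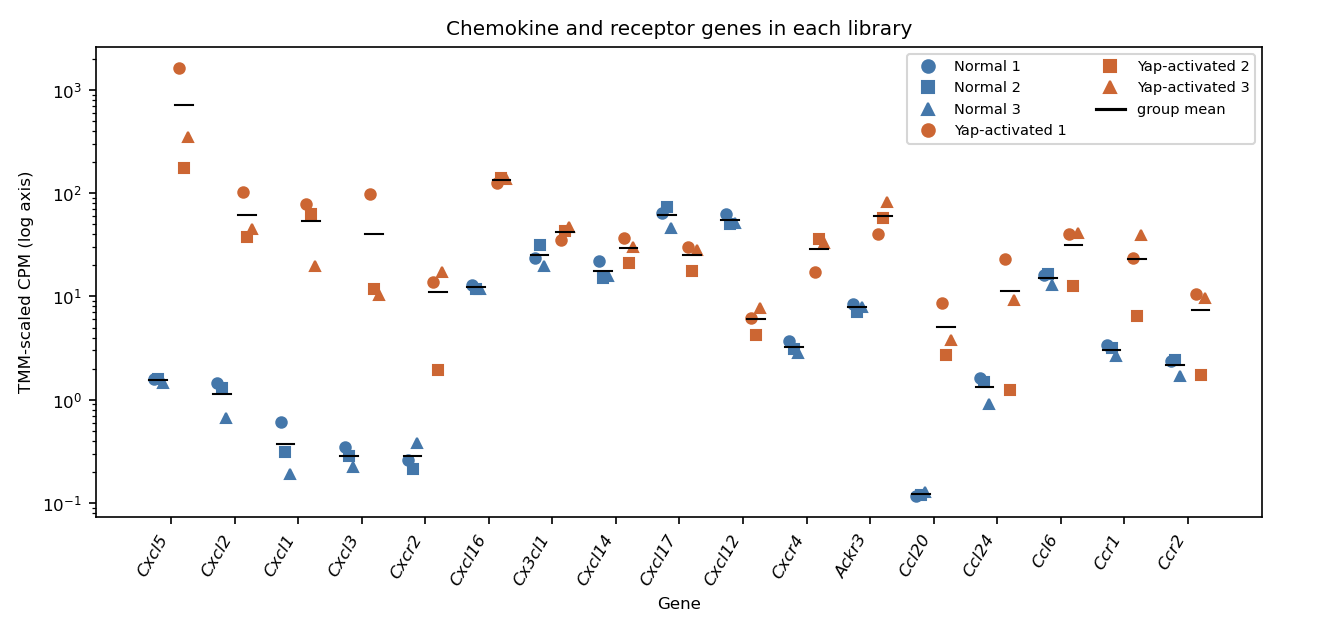
TMM-scaled CPM (y axis, log scale) of 17 chemokine and receptor genes (x axis) in each of the 6 libraries, with bars at the group means. Cxcl5 reaches 1622 CPM in Yap-activated replicate 1, Cxcl16 is nearly level over the Yap-activated libraries, and Cxcl12 and Cxcl17 are lower there than in every Normal library.

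Membrane-held ligands also rose, with far less spread. Cxcl16 is a transmembrane chemokine that acts on Cxcr6 and can be shed by metalloproteases. It was at 13.0, 11.8 and 11.9 CPM in Normal and 126, 141 and 137 CPM in Yap-activated libraries. The highest Yap-activated library was 1.12 times the lowest, the smallest such ratio among the 27 genes that rose. Its log2 fold change of 3.46 (SE 0.10, adjusted p = 4.61e-07) had the smallest adjusted p of the 47 genes. Of the 3021 exon bases of Cxcl16 (chromosome 11, 70453983 to 70459984, minus strand), 552 overlap Zmynd15 on the opposite strand. Zmynd15 rose as well, from a mean of 3.74 to 28.3 CPM, and the share of reads between these genes cannot be told from the table. Cxcr6, the receptor of Cxcl16 on T cells, had 0.379, 0.641 and 0.443 CPM in Normal and 1.42, 0.191 and 0.521 CPM in Yap-activated libraries. Its groups overlapped, and the log2 fold change was 0.49 (95% interval -1.06 to 2.04).

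Cx3cl1, or fractalkine, carries its chemokine domain on a mucin-like stalk. Its levels were 23.8, 31.6 and 19.6 CPM in Normal and 35.2, 43.1 and 47.2 CPM in Yap-activated libraries, without overlap. On the log2 scale the rise was 0.74 (SE 0.19, adjusted p = 0.0109). For its receptor Cx3cr1, a gene of monocytes and macrophages, the levels were 6.35, 7.06 and 6.45 CPM in Normal and 7.90, 3.63 and 17.4 CPM in Yap-activated libraries. Yap-activated replicate 2 lay under the Normal libraries and replicate 3 well over them, and the gene did not pass (log2 fold change 0.55, 95% interval -0.64 to 1.74). It passed without replicate 2, at 0.94 (adjusted p = 0.0375).

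The remaining CXC ligands moved apart. Cxcl17, a chemokine of mucosal surfaces, fell from 64.6, 72.9 and 45.6 CPM to 30.4, 17.6 and 28.1 CPM. No Yap-activated library reached the lowest Normal library, and the log2 fold change was -1.27 (SE 0.25, adjusted p = 0.00378). Cxcl14, made by many epithelia at rest, had 22.1, 15.0 and 15.6 CPM in Normal and 36.5, 21.3 and 30.0 CPM in Yap-activated libraries. It rose by 0.73 on the log2 scale (SE 0.23, adjusted p = 0.0251), although Yap-activated replicate 2 lay under Normal replicate 1, and its call was lost without any of 4 libraries (Normal replicates 2 or 3, Yap-activated replicates 1 or 3). Cxcl13, which draws B cells into follicles, did not pass and ranged from 0.116 to 0.474 CPM in Normal and from 0.143 to 1.25 CPM in Yap-activated libraries.

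The Cxcl12 axis changed in opposite directions for ligand and receptors. Cxcl12 is made by stromal cells, Cxcr4 is its signalling receptor, and Ackr3 takes it up. Cxcl12 fell from 63.5, 50.2 and 51.5 CPM to 6.20, 4.22 and 7.81 CPM, the largest fall among the 47 genes (log2 fold change -3.18, SE 0.23, adjusted p = 2.34e-05). Cxcr4 rose from 3.70, 3.11 and 2.85 CPM to 17.4, 36.0 and 33.0 CPM. The groups did not overlap, and the rise was 3.16 on the log2 scale (SE 0.29, adjusted p = 7.24e-05). Ackr3 went from 8.50, 7.08 and 7.90 CPM to 40.0, 57.1 and 81.6 CPM, again without overlap (log2 fold change 2.93, SE 0.26, adjusted p = 7.81e-05). Both receptors were lowest in Yap-activated replicate 1, the library in which Cxcl5, Cxcl2 and Cxcl3 were highest.

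Beside Cxcl12, of 7 endothelial markers 6 fell and 1 did not pass, and their summed level went from 166.7 to 184 CPM in Normal to 33.0 to 58.7 CPM in Yap-activated libraries. Of 7 fibroblast markers 3 fell, 1 rose and 3 did not pass, with sums of 797 to 1199 CPM and 372.8 to 618.3 CPM. The collagen genes Col1a2 and Col3a1 and Lum fell, Thy1 rose by 2.15 on the log2 scale, and Col1a1 and Dcn did not pass. Pdgfra, a receptor gene of fibroblasts, did not pass either, at 31.1, 23.4 and 25.6 CPM in Normal and 25.2, 22.5 and 47.4 CPM in Yap-activated libraries. The part of these cells in the fall of Cxcl12 was not tested.

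Among CC ligands of mucosal and lymphoid homing, 4 of 7 tested rose, 1 fell and 2 did not pass. Ccl20 is the ligand of Ccr6 and is induced in inflamed epithelium. It had 0.116, 0.119 and 0.126 CPM in Normal and 8.71, 2.72 and 3.79 CPM in Yap-activated libraries, a rise by 5.35 on the log2 scale (SE 0.57, adjusted p = 1.32e-04). Without Yap-activated replicate 1 its log2 fold change was 4.73. Its receptor Ccr6 was too low to test, with 0, 2 and 0 counts in Normal and 3, 2 and 8 counts in Yap-activated libraries. The ligands of Ccr4, Ccl17 and Ccl22, which dendritic cells make, both rose from low levels. Ccl17 went from 0.116, 0.0950 and 0.0632 CPM to 3.93, 1.43 and 1.19 CPM (log2 fold change 4.50, SE 0.64, adjusted p = 5.75e-04), and was at 3.80 without Yap-activated replicate 1. Ccl22 went from 0.320, 0.570 and 0.253 CPM to 2.91, 0.930 and 0.930 CPM (2.01, SE 0.58, adjusted p = 0.018). The value for Ccl22 was 1.27 without Yap-activated replicate 1, and it no longer passed when Normal replicate 1 or 3 was left out (adjusted p = 0.0678 and 0.0697). Ccr4 itself had 1, 1 and 2 counts in Normal and 5, 4 and 8 counts in Yap-activated libraries and was not tested.

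Ccr7, the receptor by which dendritic cells reach lymph nodes, rose with these ligands. Its levels were 0.0874, 0.238 and 0.0948 CPM in Normal and 3.12, 0.739 and 0.949 CPM in Yap-activated libraries (log2 fold change 3.42, SE 0.72, adjusted p = 0.00446). The value was 2.54 without Yap-activated replicate 1 and 4.07 without Normal replicate 2. Of its ligands, Ccl21a had 2 counts in each Normal library and 14, 22 and 15 counts in the Yap-activated libraries, and it passed at these counts (log2 fold change 2.85, SE 0.50, adjusted p = 0.00176). Ccl21a has near-identical copies, among them Ccl21b, so its reads may be split or misplaced. Of 8 dendritic cell markers, 6 were tested and 3 rose. Their sums were 26.9 to 33.3 CPM in Normal and 83.44, 89.55 and 198.6 CPM in Yap-activated replicates 1 to 3. Ccr7, Ccl17 and Ccl22 were highest in replicate 1, where this sum was lowest, and Ccl21a was highest in replicate 2. The defining markers Clec9a and Zbtb46 did not pass, and Xcr1 was at most 0.372 CPM in any library and was not tested. The part of dendritic cells in these rises was not tested.

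The ligands of Ccr9 and Ccr10 were among those that did not rise. Ccl25, the Ccr9 ligand of the gut, was at 8.59, 8.60 and 8.82 CPM in Normal and 11.5, 7.04 and 8.09 CPM in Yap-activated libraries (log2 fold change 0.03, 95% interval -0.45 to 0.51). With library totals as the only scaling it passed as higher (0.52, adjusted p = 0.049). Of its exon bases 204 overlap Elavl1, which was at means of 62.7 CPM in Normal and 61.7 CPM in Yap-activated libraries. Ccl28, a ligand of Ccr10 in glandular epithelia, had 2.59, 5.13 and 3.07 CPM against 1.69, 1.53 and 3.89 CPM (log2 fold change -0.59, 95% interval -1.60 to 0.42). It passed as lower only without Yap-activated replicate 3, among the alternatives run (log2 fold change -1.16, adjusted p = 0.0305). Ccl27a, the other Ccr10 ligand, fell from 3.38, 2.52 and 3.70 CPM to 1.80, 0.692 and 1.71 CPM (log2 fold change -1.19, SE 0.40, adjusted p = 0.0313). It no longer passed when Normal replicate 1 or 3 was left out (adjusted p = 0.0826 and 0.0994) or with library totals as the only scaling (adjusted p = 0.146). The receptors did not pass either, with Ccr9 at 0.443 to 0.582 CPM in Normal and 0.382 to 1.66 CPM in Yap-activated libraries, and Ccr10 at 0.204 to 0.506 and 0.239 to 0.305 CPM. The exons of Ccr9 (10260 bases) overlap Slc6a20a and AC165425.1 on the opposite strand, by 1954 bases in sum. They overlap Gm17200 on the same strand by 269 bases, so reads may be shared. Ccr9 passed without Yap-activated replicate 2 (log2 fold change 1.25, adjusted p = 0.0398) and with library totals alone (1.37, adjusted p = 0.0462).

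Of 13 CC ligands of myeloid cells and inflammation 11 were tested, of which 7 rose and 4 did not pass. Ccl2, Ccl7 and Ccl8, monocyte attractants from a cluster on chromosome 11 (82035571 to 82305690), rose from low levels. Ccl2 had 0.641, 0.618 and 0.569 CPM in Normal and 2.71, 0.978 and 2.19 CPM in Yap-activated libraries (log2 fold change 1.68, SE 0.42, adjusted p = 0.00976). Ccl7 rose by 1.76 and Ccl8 by 2.07 on the log2 scale, and neither had overlapping groups. Their neighbours Ccl11, or eotaxin, and Ccl12 did not pass, with Ccl11 at 9.23, 6.82 and 10.1 CPM against 5.05, 7.42 and 15.0 CPM. The direction for Ccl11 and Ccl12 changed with single libraries left out.

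In a separate cluster further along chromosome 11 (83525778 to 83664683) lie Ccl5, Ccl9, Ccl6, Ccl3 and Ccl4. Ccl3 and Ccl4, made by activated myeloid cells, were highest in Yap-activated replicate 1 and rose by 2.24 and 2.78 on the log2 scale. Without that library the values were 1.38 and 1.93, and Ccl3 lost its call without Normal replicate 2 or 3. Ccl5, a lymphocyte product, stood under 1 CPM in all libraries and rose by 1.56 on the log2 scale (adjusted p = 0.0202). Leaving out Normal replicate 1 or 3 or Yap-activated replicate 1 ended that call. Ccl6, a macrophage and neutrophil product, had 16.2, 16.4 and 12.8 CPM in Normal and 39.9, 12.7 and 41.0 CPM in Yap-activated libraries. It did not pass (log2 fold change 1.04, adjusted p = 0.0668), with replicate 2 at the Normal level, and it passed without that library (1.41, adjusted p = 1.87e-04), with DESeq2 (adjusted p = 0.0104) and with library totals alone (adjusted p = 0.013). Ccl9 passed only without Yap-activated replicate 2 among the alternatives run (0.89, adjusted p = 0.0208). Ccl24, an eotaxin that macrophages make, had 1.63, 1.47 and 0.917 CPM in Normal and 23.0, 1.24 and 9.32 CPM in Yap-activated libraries. Its highest Yap-activated library was 18.6 times the lowest, the widest ratio among the genes that rose, and the groups overlapped (log2 fold change 3.05, SE 0.94, adjusted p = 0.0274). The call was lost without any library but Yap-activated replicate 2, and the value was 1.98 without Yap-activated replicate 1.

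Receptors of these ligands on monocytes and macrophages were highest in Yap-activated replicates 1 and 3. Ccr1, the receptor of Ccl3, Ccl6 and Ccl9, had 3.38, 3.14 and 2.66 CPM in Normal and 23.4, 6.46 and 39.1 CPM in Yap-activated libraries. The groups did not overlap (log2 fold change 2.91, SE 0.61, adjusted p = 0.00562), and the value was 2.28 without Yap-activated replicate 3. Ccr2, the Ccl2 receptor of monocytes, had 2.39, 2.40 and 1.71 CPM in Normal and 10.6, 1.74 and 9.65 CPM in Yap-activated libraries. With replicate 2 at the Normal level the groups overlapped, and the log2 fold change was 1.75 (SE 0.61, adjusted p = 0.0416). That call was lost without any single library but Yap-activated replicate 2. Ccr3, the eotaxin receptor, went from 0.309 to 0.524 CPM in Normal to 0.811 to 1.05 CPM in Yap-activated libraries (log2 fold change 1.17, adjusted p = 0.0202). Leaving out Normal replicate 2 or 3 or Yap-activated replicate 1 ended that call.

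Markers of leukocytes followed the same order of libraries in part. Of 13 macrophage and monocyte markers 5 rose and 8 did not pass, with sums of 186.3 to 190.7 CPM in Normal and 737.5, 388.9 and 969.7 CPM in Yap-activated replicates 1 to 3. Cd14 and Lyz2, both among the 5 that rose, were the largest terms of the Yap-activated sums. In Yap-activated replicates 1 to 3 Cd14 was at 401, 209 and 226 CPM and Lyz2 at 193, 81.1 and 272 CPM. Their Normal means were 12.5 and 76.3 CPM. Adgre1, the F4/80 gene, did not pass, at 5.97 to 6.20 CPM against 3.83, 2.31 and 13.0 CPM. Of 7 genes of leukocytes in general 5 rose and 2 fell. Their sums overlapped, at 200.6 to 222.9 CPM in Normal and 211.1, 102.6 and 341.7 CPM in Yap-activated replicates 1 to 3. Lcp1 fell from a mean of 139 to 70.9 CPM and Cytip from 37.3 to 11.7 CPM. Ptprc, the CD45 gene, was at 9.46 to 10.3 CPM in Normal and 33.3, 14.3 and 60.1 CPM in Yap-activated libraries. Mast cell and eosinophil markers moved both ways, 2 higher and 2 lower of 7 tested, and the eosinophil granule genes Epx and Prg2 were at most 0.112 CPM. The part of these cells in the rises of the receptors was not tested.

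**Figure D3:**
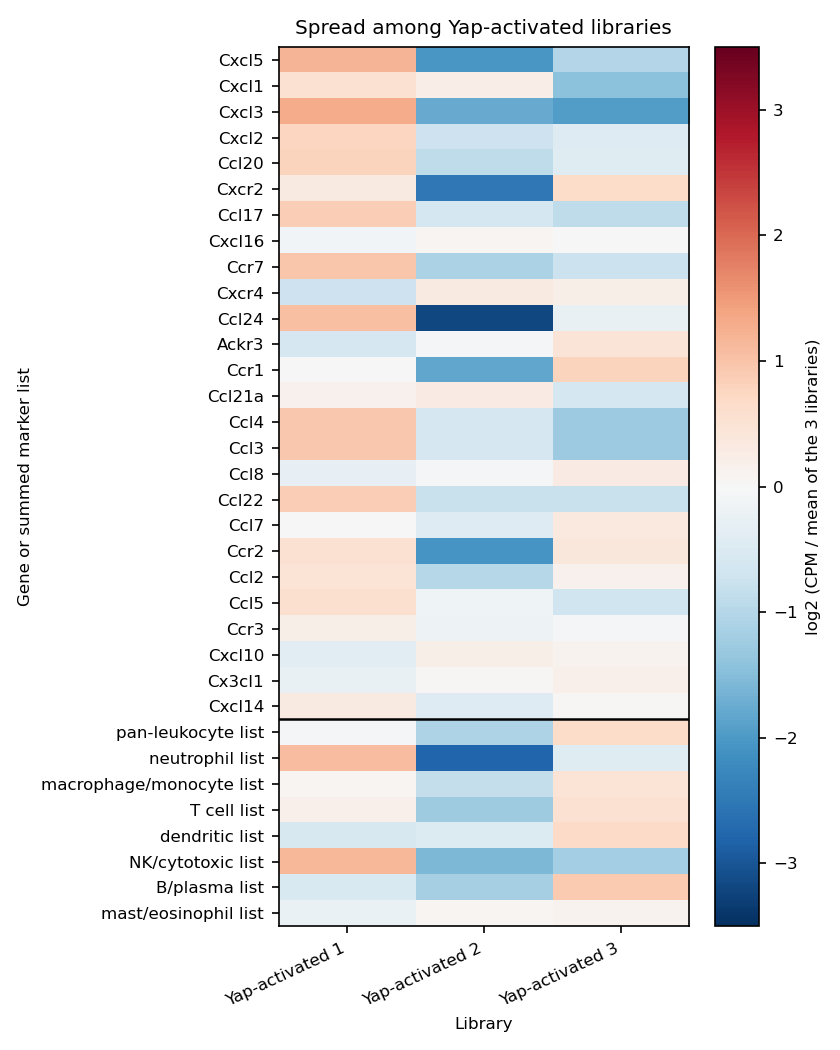
Spread among the 3 Yap-activated libraries (x axis) of 26 of the 27 genes that rose and, under the line, of the summed CPM of 8 leukocyte marker lists (y axis), as log2 of the CPM over the mean of the 3 libraries. Replicate 2 is lowest in 12 of the 26 genes drawn, Ccl24 and Cxcr2 among them, and in 6 of the 8 marker sums (replicate 1 is lowest for the dendritic and the mast and eosinophil lists), while Cxcl16 is nearly even.

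The 27 genes that rose thus differed in how evenly they did so. Yap-activated replicate 1 was the highest library for 16, replicate 3 for 7 and replicate 2 for 4. Replicate 2 was the lowest for 13, replicate 3 for 8 and replicate 1 for 6. The highest Yap-activated library was under 2 times the lowest for 8 genes, which were Cxcl16, Ccr3, Cx3cl1, Cxcl10, Ccl8, Cxcl14, Ccl7 and Ccl21a. It was over 3 times the lowest for 14 genes, including all Cxcr2 ligands but Cxcl2, at 2.76 times.

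Interferon-inducible ligands and lymphocyte receptors showed little. Cxcl10 went from 0.641, 0.618 and 1.33 CPM to 1.36, 2.05 and 1.93 CPM, without overlap by a narrow margin (log2 fold change 1.06, SE 0.39, adjusted p = 0.047), and lost its call in 5 alternatives (adjusted p from 0.0545 to 0.164). Of the exon bases of Cxcl10, 133 overlap Art3, which was at means of 5.79 CPM in Normal and 1.30 CPM in Yap-activated libraries. Cxcl9 did not pass, at 0.408, 1.76 and 0.948 CPM in Normal and 1.05, 0.262 and 0.428 CPM in Yap-activated libraries. Their receptor Cxcr3 had 2 to 8 counts in Normal and 2 to 10 counts in Yap-activated libraries and was not tested, and Ifng, the interferon-gamma gene, was at most 0.0678 CPM. Cxcr5, Ccr8 and Ccl1 were also too low to test, with at most 11, 2 and 2 counts in a library, as was Ccr1l1 with at most 2. Of 10 T cell markers 6 were tested, of which Lck and Cd28 rose and 4 did not pass, with sums of 3.45 to 4.55 CPM in Normal and 3.58 to 12.3 CPM in Yap-activated libraries. In sum, 11 genes were not tested. Of these Ccl19, Ccl21b, Ccl26 and Ccl27b had a count of 0 in all 6 libraries, which allows levels of up to 0.0558 to 0.102 CPM at 3 counts a library, for counting error only.

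Of the 4 atypical receptors only Ackr3 passed in the edgeR test with TMM. Ackr1, which binds chemokines on venules and red cells, had 0.158 to 0.699 CPM in Normal and 0.191 to 0.409 CPM in Yap-activated libraries, and shares 361 exon bases with Cadm3 on the same strand. Ackr2, a scavenger of inflammatory CC chemokines, had 0.116 to 0.190 and 0.260 to 0.334 CPM (log2 fold change 0.91, 95% interval -0.02 to 1.84), and passed with library totals alone (1.39, adjusted p = 0.0167). Ackr4, a scavenger of Ccl19, Ccl21 and Ccl25, had 0.759 to 1.45 and 0.692 to 2.23 CPM (0.51, 95% interval -0.61 to 1.64). It shares 479 exon bases with Acad11 on the opposite strand, which was at means of 52.6 CPM in Normal and 19.1 CPM in Yap-activated libraries.

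The make-up of ligand transcripts, compared between genes as reads per kb of annotated exon, changed as well. In Normal libraries Cxcl17 held 57.0 ± 5.25% of the ligand level, followed by Cxcl14 with 6.94 ± 1.42% and Ccl6 with 6.05 ± 0.111% (SD, n = 3). In Yap-activated libraries Cxcl5 held 50.7 ± 20.1%, Cxcl16 10.4 ± 6.64% and Cxcl17 6.88 ± 3.09% (SD, n = 3). The Cxcr2 ligands Cxcl1, Cxcl2, Cxcl3 and Cxcl5 together held 1.10% to 1.33% of the ligand level in Normal libraries and 82.9%, 53.3% and 54.4% in Yap-activated replicates 1 to 3. Summed over all ligands, the level was 200.9 to 248.9 CPM in Normal and 2277, 567.2 and 787.1 CPM in Yap-activated libraries. Without these 4 genes the sums were 198.3 to 244.9 CPM and 374.1, 280.4 and 362.3 CPM. In these sums, which are not divided by exon length, the groups did not overlap with or without the 4 genes. Per kb of exon they did not overlap with all ligands, at 115.1 to 153.5 CPM per kb in Normal and 279.3 to 1196 in Yap-activated libraries. Without the 4 genes they overlapped per kb, with Yap-activated replicate 2 under Normal replicates 1 and 2.

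**Figure D4:**
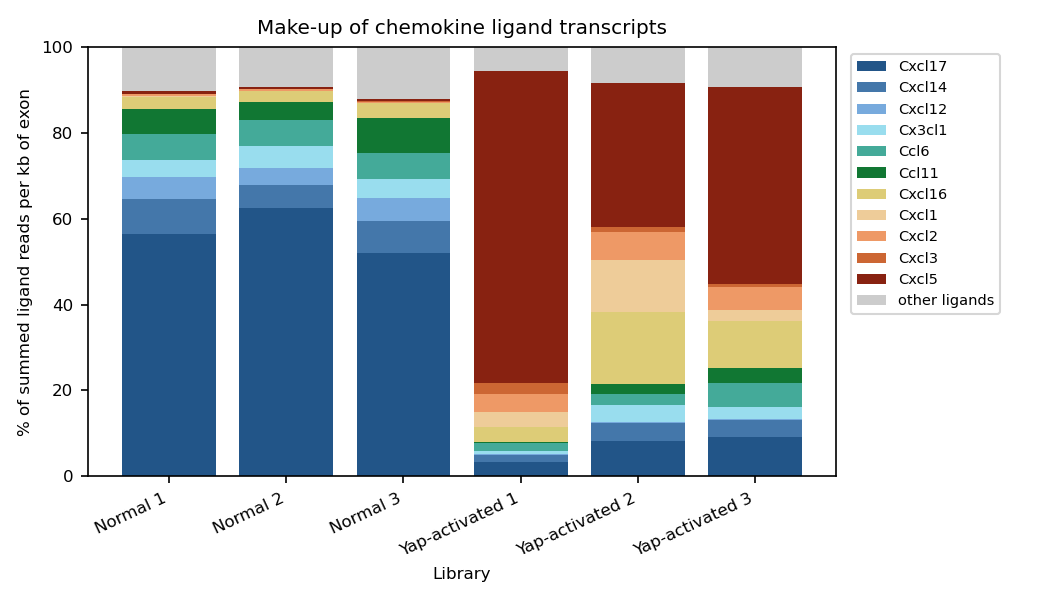
Share of each chemokine ligand (stacked colours, y axis in percent of summed ligand reads per kb of exon) in the 6 libraries (x axis). Cxcl17 takes 52.0% to 62.5% in the Normal libraries, and Cxcl5 takes 72.8%, 33.5% and 45.8% in Yap-activated replicates 1 to 3.

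Ligands were set beside their receptors in 42 textbook pairs with both genes in the table, of which 31 had both tested. In 15 pairs both rose, among them Cxcr2 with its 4 ligands and Ccr7 with Ccl21a. In 2 pairs, Cxcl12 with Cxcr4 and with Ackr3, receptor and ligand moved in opposite directions. Pairs share genes, so these counts are no independent measures.

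Other genes of the chemokine system were taken by function, and their counts stand beside 29.8% higher and 29.7% lower among all genes tested. The median log2 fold change of all genes tested was 0.01. Of 12 chemokine-related genes with other names (Ccr1l1, counted above, among them) 8 were tested, of which 5 rose and 3 did not pass, at a median log2 fold change of 1.46. Ppbp, a further Cxcr2 ligand known from platelets, went from 0.291, 0.261 and 0.126 CPM to between 7.11 and 28.4 CPM (log2 fold change 5.99, SE 0.71, adjusted p = 3.76e-04). Cklf, a chemokine-like factor, rose by 2.41 and Mif, a cytokine that also binds Cxcr2 and Cxcr4, by 0.89. Pf4, the platelet chemokine, did not pass (0.12). Among 30 genes of receptor signalling 11 rose, 3 fell and 16 did not pass, at a median of 0.37. They include the G protein gene Gnai2 at 1.04, the regulator Rgs16 at 3.58 and Arrb1, a beta-arrestin gene, at -1.16. Of 13 genes for shedding, cleavage and display of ligands 7 rose, 3 fell and 3 did not pass, at a median of 0.54. The sheddase gene Adam10 rose by 0.67 (adjusted p = 0.0494) while Adam17 did not pass (0.14), and the proteoglycan gene Sdc1 rose by 1.03. Of 36 genes that induce chemokines in epithelium or relay such signals, 32 were tested, 21 rose, 2 fell and 9 did not pass, at a median of 0.86. Il1a rose by 5.35, the NF-kappaB inhibitor gene Tnfaip3 by 3.09 and the cofactor gene Nfkbiz by 2.04, while Il17re, a receptor chain for Il17c, fell by 1.73. Il17a was listed at 0 in Normal and had 1.90, 0 and 0.130 CPM in Yap-activated libraries.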

How the data were processed

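The authors deposited raw read counts by gene symbol in 1 table with a column for each of the 6 libraries, all used. STAR 2.4.2a and DESeq2, with GRCm38 and mm10 as builds, are listed in the submitters' processing notes. How reads were counted, and with what strand setting, the sources used here do not give, so reads of overlapping genes or close copies can sit in a count. Low genes were dropped with filterByExpr (minimum count 10) of edgeR 4.0.16 in R 4.3.3, and counts were scaled by TMM and tested over all 6 libraries with the robust quasi-likelihood F-test, with Benjamini-Hochberg adjustment and a threshold of 0.05. The fit was run on simulated data with 200 genes changed. That is far fewer than the 8682 genes called here, so the run does not check scaling under so many changes. The SE is the log2 fold change over the square root of F. Alternatives used limma 3.58.1 (voom) and DESeq2 1.42.0. Exon lengths and coordinates came from GENCODE M21 (GRCm38), which held all 58 symbols, and promoters from RefSeq (GRCm38.p6). The 58 genes were fixed by their symbols, while lists and pairs were chosen with earlier results of these data known. Full statistics went to called genes with a mean of at least 10 CPM in the higher group and to 24 listed genes, and others were chosen after their values were seen. Alternatives changed the scaling, the low-count filter, the tool and the libraries used. The result of 1 receptor gene is not reported here, although the counts include it.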

Additional observations from a re-analysis of the deposited data

How the results depend on the processing

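Counts of chemokine and receptor genes called were recomputed under 15 alternatives. The count of genes that rose, 27, was 31 with library totals as the only scaling, 23 without a filter on low counts, 21 with a filter of 1 CPM in 3 libraries, 24 with limma voom, and 19 to 30 when single libraries were left out. The count of genes that fell, 4, was 2 with library totals alone and 2 to 4 when single libraries were left out. With library totals alone the median of all genes moved from 0.01 to 0.50 log2, and 76.6% of all calls were higher against 50.0%. With the replicate block the counts were 24 and 4, and the calls of Ccl24 and Ccr2 were among those lost there. The deviations of same-numbered libraries correlated at 0.040, 0.0027 and 0.069, and those of other pairs at -0.111 to 0.066. Correlations over all genes cannot show whether same-numbered libraries share more than a number. Of the 31 genes called, 20 kept their call under every alternative in which they were tested and 11 lost it under at least 1. None of the 31 changed direction. The filter of 1 CPM in 3 libraries left 32 of the 47 genes to test. A gene not tested in an alternative was not counted as a lost call. Directions changed only among genes not called. Ccr10 was at 0.11 with library totals alone, Ccl25 at -0.036 with voom and Ccl11 at -0.043 with the replicate block. Leaving out single libraries gave -0.47 to 0.38 for Ccl11, -0.10 to 0.59 for Ccl12, -0.19 to 0.16 for Ccl25, -0.10 to 1.63 for Cxcl13, -0.33 to 1.46 for Cxcr1, -0.43 to 0.94 for Cxcr6 and -0.20 to 0.94 for Cx3cr1. On raw counts without length, shares of ligand counts in Normal were 0.674% for Cxcl5, 5.33% for Cxcl16, 26.2% for Cxcl17 and 23.9% for Cxcl12, and in Yap-activated libraries 2.67% for Cxcl17 and 0.670% for Cxcl12, since long transcripts then weigh more. Genes under about 1 CPM rest on few counts.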
